A study of Mus musculus with 5 samples.

Results

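The comparison set macrophages after 0.5 h of lipopolysaccharide (LPS) against macrophages at 0 h, 1 array against 1 array. Each array was centred on its median over the 18965 probes with a value on both, the 0 h value of a probe was subtracted from its 0.5 h value, and probes annotated to 1 gene were averaged by gene. This gave a change for 8852 genes, from 2 of the 5 arrays in the series. The cells were macrophages raised from the marrow of BALB/c mice, grown in vitro with human CSF-1, which drives the macrophage lineage. The 0 h culture has no LPS in its label, and the 0.5 h culture received 10 ug/ml LPS of S. minnesota. The other 3 arrays were of cultures after 2, 7 and 21 h. Both channels of an array held total RNA, and the second was RNA of C57BL6/J whole embryos of day 17.5, which drops out of the subtraction. No culture was measured after 0.5 h without LPS, so an effect of LPS and an effect of handling or of time in culture cannot be told apart. With 1 array a side there is no replicate and no test, and each value describes these 2 arrays.

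LPS, a glycolipid of the outer membrane of Gram-negative bacteria, is sensed on macrophages by Toll-like receptor 4 with its partners MD-2 and CD14. The receptor signals through adaptor proteins to the NF-kappaB and MAP kinase pathways, and later, from endosomes, to interferon regulatory factors that turn on type I interferon and then the interferon-stimulated genes. The genes known to respond soonest are the immediate-early genes, such as those of the AP-1 factors Fos and Jun and of the Egr and Nr4a families, whose transcription needs no new protein. Feedback inhibitors of NF-kappaB follow closely. Resting macrophages in culture are known to carry a low interferon tone, which keeps antiviral genes at a measurable level before any stimulus.

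The promoters below belong to some of the genes on which the results turn. Fos and Nfkbia, which encodes the inhibitor IkappaB-alpha, stand for the early response. Rsad2 and Ifit1, antiviral effectors, and Igtp, an interferon-inducible GTPase, are interferon-stimulated genes that were lower (Rsad2, Ifit1) or higher (Igtp) at 0.5 h. Each sequence is the 250 bases before the gene's start from RefSeq, build GRCm38.p6, written 5′ to 3′ on the strand of the gene. Capitals mark TGACG, the core of the cyclic AMP response element, and TATAAA in Fos, the NF-kappaB core (GGGA, any 4 bases, CC) in Nfkbia, and the core of the interferon-stimulated response element (GAAA, any 2 bases, GAAA) in the 3 interferon-stimulated genes. Both strands were searched. A match is a run of letters, not a site shown to be bound.

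Fos (chr12:85473640-85473889, plus strand): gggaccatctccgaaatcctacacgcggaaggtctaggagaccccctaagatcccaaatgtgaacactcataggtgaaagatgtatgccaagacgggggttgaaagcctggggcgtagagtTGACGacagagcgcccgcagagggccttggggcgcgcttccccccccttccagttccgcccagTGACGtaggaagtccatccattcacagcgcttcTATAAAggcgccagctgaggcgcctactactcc
Nfkbia (chr12:55492648-55492897, minus strand): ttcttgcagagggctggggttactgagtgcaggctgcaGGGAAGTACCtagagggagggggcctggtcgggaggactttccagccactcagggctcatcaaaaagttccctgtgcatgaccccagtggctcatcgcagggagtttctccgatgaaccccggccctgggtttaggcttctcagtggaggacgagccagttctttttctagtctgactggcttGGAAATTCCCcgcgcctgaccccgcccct
Rsad2 (chr12:26456453-26456702, minus strand): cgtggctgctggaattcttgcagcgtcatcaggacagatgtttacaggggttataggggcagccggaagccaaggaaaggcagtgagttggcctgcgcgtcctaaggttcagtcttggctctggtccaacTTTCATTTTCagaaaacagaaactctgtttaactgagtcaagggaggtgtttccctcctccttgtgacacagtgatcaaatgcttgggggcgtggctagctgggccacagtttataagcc
Ifit1 (chr19:34640639-34640888, plus strand): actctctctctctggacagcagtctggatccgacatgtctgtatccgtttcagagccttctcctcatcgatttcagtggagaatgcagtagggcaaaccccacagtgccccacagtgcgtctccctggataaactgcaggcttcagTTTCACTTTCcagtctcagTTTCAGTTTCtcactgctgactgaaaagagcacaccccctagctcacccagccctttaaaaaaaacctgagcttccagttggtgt
Igtp (chr11:58199306-58199555, plus strand): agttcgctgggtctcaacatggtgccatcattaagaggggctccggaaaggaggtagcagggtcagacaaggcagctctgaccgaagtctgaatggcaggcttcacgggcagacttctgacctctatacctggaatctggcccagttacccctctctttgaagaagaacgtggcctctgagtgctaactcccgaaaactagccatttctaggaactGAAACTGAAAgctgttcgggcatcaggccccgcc

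The TGACG runs of Fos lay 129 and 66 bases before the start and TATAAA 33 bases before it. The NF-kappaB cores of Nfkbia lay at 212 and 29 bases, the interferon element of Rsad2 at 120, those of Ifit1 at 104 and 85, and that of Igtp at 34 bases. Promoters were found for 7135 of the 8852 genes. The interferon element was in 2.48% of them, against 11 of the 26 matched interferon-stimulated genes measured here (42.3%). It was absent from the window of Oasl2, not printed, an interferon-stimulated gene that was lower at 0.5 h. Of genes with each of several probes at least 0.3 units higher, 2 of 19 matched had the element. Of those with each probe as much lower, 1 of 5 had it. The NF-kappaB core was in 3 of those 19 and 1 of those 5. The NF-kappaB core was in 21.2% of all promoters and TGACG in 25.9%, so that neither is rare in a window of this length.

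The deposited values are signed log ratios of a base not given in the sources used here. Levels (the centred log ratio of an array) and changes (0.5 h minus 0 h) are therefore in units of that log ratio, and no fold change is given. The ratio was read as macrophage over embryo, a likely direction that the sources do not settle; read the other way, each higher would be lower. At 0 h the macrophage markers (19 measured) had a median of 0.15 and the embryonic tissue markers (47 measured) of -0.65, and at 0.5 h the medians were 0.21 and -0.61. The SD of the values was 0.346 on the 0 h array and 0.428 on the 0.5 h array, between 0.323 and 0.545 on the 3 others, and the 0.5 h array had 681 empty values against 209 at 0 h. Error could be measured as the spread between probes of 1 gene. The SD of a single probe's change was 0.273 units, so that 2 SD make 0.546 units. It came from the difference between probes of the same gene over 3142 genes. The same cut was used for each gene, whatever the number of its probes or their place in the deposited table. For a mean of independent probes the error would be smaller, 0.1931 units for 2 probes and 0.1365 for 4. The cut is thus wide for genes with several probes, and within 2 SD does not mean within their error. Over the 8852 genes, changes had an SD of 0.285 units, hardly more. This error covers spots and probes on these 2 arrays and says nothing of cultures, animals or labelling.

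In bulk RNA, fewer cells with a transcript and less of it per cell cannot be told apart. By size, the changes from 0 h to 0.5 h had a tail upwards and almost none downwards. Counted by gene, most of the tail lay among genes with 1 probe. Averaging can draw a gene with 1 high probe among several below 1 unit, so this count alone does not set genes with 1 probe apart. By probe, 267 of 18965 (1.41%) were at least 1 unit higher, 54 of them in the 1921 genes with exactly 2 probes. Of 8852 genes, 130 (1.47%) had a change of 1 unit or more upwards and 3 (0.0339%) of 1 unit or more downwards. Genes with 1 probe, 5710 in all, held 117 of the higher genes (2.05% of them) and the 3 lower ones (0.0525%). Genes with 2 or more probes that shared a sign, 1212 in all, held 8 (0.66%) and 0 (0%). Genes whose probes differed in sign, 1930 in all, held 5 (0.259%) and 0 (0%). Past 2 SD lay 381 genes upwards (4.3%) and 35 downwards (0.395%). The median change of all genes was 0.01 units, and 4699 genes (53.1%) lay above 0.

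**Figure D1:**
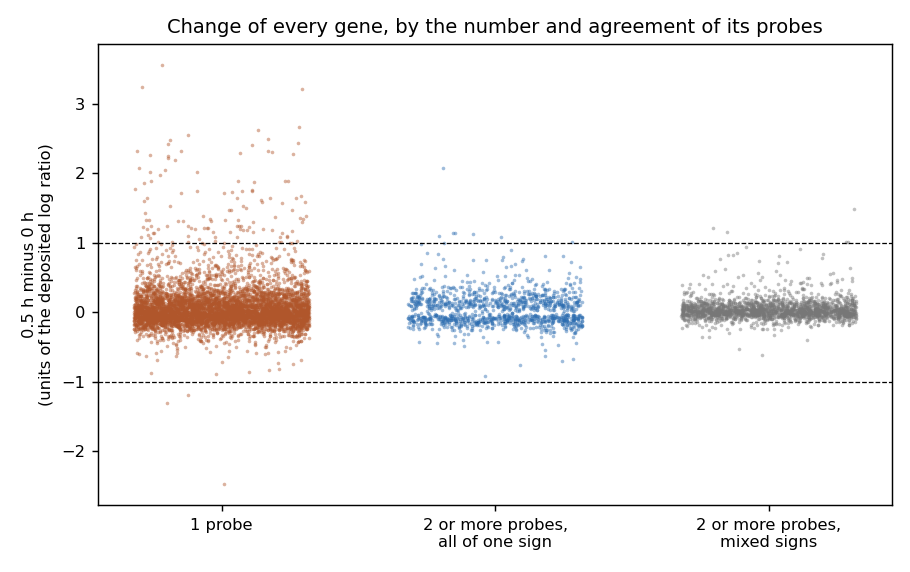
Change from 0 h to 0.5 h (vertical axis, units of the deposited log ratio) of each of the 8852 genes, 1 point a gene, in 3 groups: 5710 genes with 1 probe, 1212 whose probes share a sign and 1930 whose probes differ in sign; sideways position is only to spread the points. Dashed lines mark 1 unit in either direction. The long tail above 1 unit, up to 3.56 for Cideb, stands among genes with 1 probe. In the other 2 groups the probes of a gene are averaged, which can draw a single high probe below 1 unit.

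The split between higher and lower genes depended on how the 2 arrays were brought to one scale. Past 1 unit, quantile normalization, which gives both arrays one distribution, left 48 genes higher and 19 lower. Cyclic loess left 11 higher and 22 lower. Without centring the counts were 143 and 3. Without probe numbers 1 to 6000, a setting chosen after the data were seen, 8 were higher and 2 lower.

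Probes of the same gene shared little of the change. Of 1921 genes with exactly 2 probes, 976 (50.8%) had both changes on the same side of 0. Across these genes, which are not independent replicates, the changes of both probes correlated with Pearson's r of 0.059 and Spearman's rho of 0.062. Their levels correlated at 0.268 and 0.239 at 0 h and at 0.193 and 0.213 at 0.5 h. A large increase of 1 probe was seldom shared. Among the 53 genes with a probe at 1 unit or more, those 54 probes had partners with a median change of -0.02 units, of which 24 lay above 0, 8 reached 0.3 and 2 reached 1 unit, both of them from Hdgfl1. Of 37 probes at -0.5 or less, 22 had a partner below 0 and 9 a partner at -0.3 or less. Of 173 probes at 0.5 or more, 87 had a partner above 0 and 26 a partner at 0.3 or more. How many of all probes lay past 0.3 units either way was not counted. Whether partners followed more often than other probes is therefore not known.

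**Figure D2:**
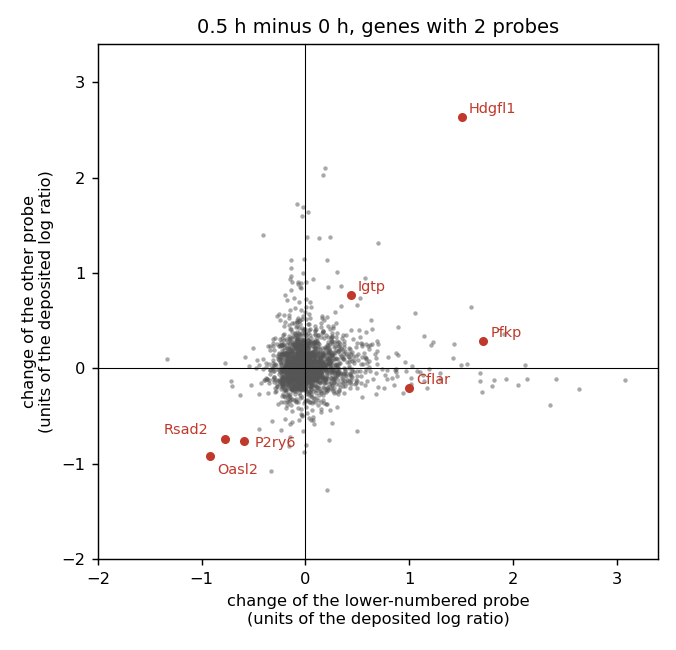
Changes from 0 h to 0.5 h of both probes of the 1921 genes with exactly 2 probes, in units of the deposited log ratio; the horizontal axis is the probe with the lower number. Points spread along both axes, where 1 probe changed by more than its partner, and few lie on the diagonal: Hdgfl1 far up, and Oasl2, Rsad2 and P2ry6 down.

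The higher probes were not spread evenly over the probe numbers, the order in which the deposited table lists them. Of 267 probes at least 1 unit higher, 218 (81.6%) had numbers 1 to 6000, a stretch with 30.5% of the probes, and 103 (38.6%) fell in the last 2 of its 6 stretches of 1000 numbers, with 10.1% of the probes. The same stretch held the probe of 108 of the 117 higher genes with 1 probe. The lower probes, 17 in all, did not follow it: 2 of them had numbers 1 to 6000 and 7 lay in the stretch of 1000 that starts at 18001, where 23 higher probes lay too. The spread of the changes was uneven too. Their SD within a stretch of 1000 ran from 0.327 to 0.458 units up to number 6000. It was 0.431 in the stretch from 18001 and 0.193 to 0.261 in the others. The 2 SD cut was the same in each, so it is narrow against the spread up to number 6000. The place of a number on the slide was not known, and the part of probe place in any gene's change was not tested.

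**Figure D3:**
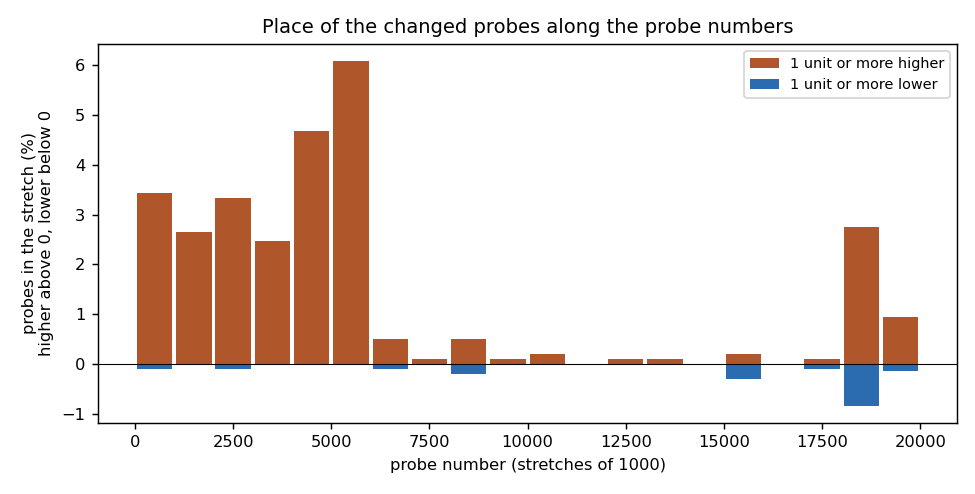
Share of probes (vertical axis, percent) at least 1 unit higher (bars above 0) or lower (bars below 0) at 0.5 h, in stretches of 1000 probe numbers (horizontal axis). The stretches up to number 6000 carry most higher probes, and a further stretch from 18001 carries both kinds.

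Genes with several probes that moved together were therefore taken apart. A gene was counted as agreeing when it had 2 or more probes and each was at least 0.3 units higher, or each at least 0.3 units lower. Of 3142 genes with 2 or more probes, 27 (0.859%) were higher and 7 (0.223%) lower. The 7 lower genes were Oasl2, Rsad2, P2ry6, Eif5a, Pinx1, Sppl2a and Slc39a5, and no probe of theirs had a number from 1 to 6000. Of the 27 higher genes, 10 had all probes in that stretch and 9 had none. The counts were 68 higher and 4 lower without centring, and 16 and 15 with quantile normalization, which kept the 7 lower genes. With cyclic loess they were 16 and 16, with 6 of the 7 lower genes kept. After removal of a running median along the probe numbers they were 21 and 9, of which 18 of the 27 higher genes and 5 of the 7 lower genes were kept.

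By the change of the probe nearest 0, the 2 lowest agreeing genes were antiviral interferon-stimulated genes. Oasl2, a relative of the 2′-5′ oligoadenylate synthetases, had levels of 1.12, 0.20, 0.77, 1.43 and 0.89 units at 0, 0.5, 2, 7 and 21 h. Its probes changed by -0.92 and -0.91 units from 0 h to 0.5 h, and it was lowest of the 5 arrays at 0.5 h. Rsad2, which encodes viperin, an enzyme that blocks viral replication, had levels of 0.96, 0.20, 1.76, 2.02 and 1.89 units on the 5 arrays in order of time. Its probes changed by -0.78 and -0.74 units, so that the dip at 0.5 h stood before higher levels from 2 h on. Ifit1, which binds foreign RNA, went the same way but missed the minimum with its second probe: its levels were 0.77, 0.32, 1.22, 1.51 and 1.49 units, and its probes changed by -0.63 and -0.28. Under the other ways of scaling the arrays the change of Oasl2 lay between -1.51 and -0.86 units, Rsad2 between -1.28 and -0.70 and Ifit1 between -0.84 and -0.40.

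Of the interferon-stimulated genes as a list, 36 of 63 were measured, and they went both ways. Above 2 SD lay 4 (Parp9, Irf1, Igtp and Ifi204), below it 3 (Tgtp1, Oasl2 and Rsad2), and 29 lay within. Over all genes 4.3% lay above and 0.395% below. The median change was -0.02 units beside 0.01 for all genes, and it was 0.04 without centring and -0.08 with quantile normalization. Tgtp1, an interferon-inducible GTPase gene with 1 probe, had a level of 1.14 units at 0 h and -0.16 at 0.5 h, no value at 2 h, and levels of 1.88 and 1.74 later. It has a close paralog whose RNA the probe may also detect. Igtp, a GTPase of the same family, was higher instead, at a level of 0.49 and then 1.09 units, with probe changes of 0.44 and 0.77. Both Igtp probes had numbers from 1 to 6000, and with cyclic loess the change of Igtp was 0.04. Parp9, of the ADP-ribosyltransferase family, went from a level of 0.46 to 1.13 units on 1 probe, and its change of 0.67 was 0.33 with quantile normalization and 0.11 with cyclic loess. The change of Ifi204, a DNA-sensing family member with 1 probe, went from 0.57 to -0.56 with quantile normalization and to -1.01 with cyclic loess, so its direction was not settled. With quantile normalization, and likewise with cyclic loess, 1 member of the list was above 2 SD and 6 below. Smaller changes on probes of one sign were those of Ly6e (-0.23 units, 4 probes), Eif2ak2, the kinase PKR (-0.12, 2 probes), and Irf7, a regulator of interferon genes (0.28, 2 probes; 0.07 with quantile normalization and -0.02 with cyclic loess, so its direction was not kept).

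The other 5 agreeing decreases were in genes of other functions. P2ry6, the receptor for extracellular UDP that drives phagocytosis, went from a level of 0.76 to 0.08 units (probe changes of -0.76 and -0.59), and later arrays gave levels of 0.37, 0.74 and 0.35. Sppl2a, an intramembrane protease of lysosomes and endosomes that cuts the invariant chain, had 4 probes, all lower, with changes from -0.57 to -0.33 and a mean of -0.47 units. Its level was 0.66 and then 0.19, and between 0.63 and 0.64 on the 3 later arrays, so of the 5 arrays it was low on that at 0.5 h alone. The 4 Sppl2a probes were neighbours, with numbers 8072 to 8658. Eif5a, the hypusine-bearing translation factor, changed by -0.54 units (probes by -0.63 and -0.45). Its level was 0.10, -0.44, -0.50, -0.04 and -0.53 in order of time, low at 0.5, 2 and 21 h. Pinx1, a telomerase inhibitor, changed by -0.71 with uneven probes (-1.08 and -0.34). Slc39a5, a zinc transporter gene, changed by -0.44 (-0.55 and -0.32).

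Hdgfl1, a relative of the hepatoma-derived growth factor, led the agreeing increases. Its levels were 0.27, 2.34, 0.28, -0.16 and -0.05 units, high at 0.5 h alone, and its probes changed by 1.51 and 2.63. Ceacam12, of the carcinoembryonic antigen family, had levels of 0.66, 1.77, 1.38, -0.13 and 0.18, and Cby2 of 0.37, 1.38, 0.71, -0.07 and 0.06 units. Probes of these 3 genes had numbers from 4270 to 5548. The change of Hdgfl1 was 2.07 units and 0.82 with cyclic loess, that of Ceacam12 1.12 and 0.00, and the probes of Cby2 changed by 0.70 and 1.31, with a gene mean of 0.33 under cyclic loess. Ppp1r42 (change of 0.82 units), with probes in the same stretch, and Mettl15 (0.76), with probe numbers 239 and 240, had the same course, with levels of 0.05 or below on the 7 and 21 h arrays. With cyclic loess the change of Ppp1r42 was 0.21 and that of Mettl15 0.32.

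Other agreeing increases rested on probes from elsewhere in the numbering. Mest, an imprinted gene of embryonic mesoderm, had 3 probes with changes of 0.46, 0.64 and 0.72, numbered 15018 to 17128. Its levels were -1.22, -0.61, -0.32, -1.03 and -1.01 units, below 0 on each array. The embryonic tissue list as a whole had 2 of 47 members above 2 SD and 1 below, and a median change of 0.05 units. Ripk4, a kinase that feeds into NF-kappaB signalling, went from a level of -0.43 to 0.09 units (probe changes of 0.64 and 0.41). Rps29, a protein of the small ribosomal subunit, had 3 probes with changes of 0.47, 0.41 and 0.36. The change of Mest was 0.61 units and 0.60 with cyclic loess, that of Ripk4 0.52 and 0.54, and that of Rps29 0.41 and 0.43, so these moved little with the scaling. Coro1b, an actin-binding coronin, changed by 0.37 (probes by 0.39 and 0.35). Its level of -0.01 at 0 h and 0.36 at 0.5 h was followed by 1.06 at 2 h.

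Genes with 1 probe inside the first 6000 numbers and 1 outside it gave a further group. Agpat2, an acyltransferase of phosphatidic acid synthesis, changed by 0.63 units (probes by 0.52 and 0.74). Cfi, complement factor I, changed by 0.57 (0.63 and 0.51), with levels of -0.30, 0.26, 0.84, -0.44 and -0.21 that were highest at 2 h. Exosc3, a subunit of the RNA exosome, changed by 0.58 (0.50 and 0.67), and Trappc3, of a vesicle-tethering complex, by 0.66 (0.89 and 0.43). With cyclic loess the change of Agpat2 was 0.13 units, that of Exosc3 0.25, that of Trappc3 0.51 and that of Cfi 0.52, and with quantile normalization they were 0.23, 0.34, 0.54 and 0.49. None of these values was past 2 SD. Of the other exosome subunits, Exosc4 (1 probe) changed by 0.60 units. The changes of those with several probes (Exosc1, Exosc5, Exosc7 and Exosc9) lay between -0.01 and 0.11. The mRNA decay list had 2 of 24 members above 2 SD, Exosc3 and Exosc4, and none below, beside 4.3% and 0.395% of all genes; with quantile normalization and with cyclic loess 1 was above. The remaining agreeing increases had changes between 0.34 (Baiap2l1) and 1.14 units (Pdha2, with uneven probes at 0.36 and 1.92).

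Among immediate-early genes, Fos had the largest increase. The gene, with 1 probe, had levels of 0.26, 1.02, 0.11, 0.16 and 0.10 units at 0, 0.5, 2, 7 and 21 h, so the 0.5 h array stood above the others. Its change of 0.76 units was 0.52 with quantile normalization and 0.39 with cyclic loess, both under 2 SD. Junb, its AP-1 partner, went from a level of -0.04 to 0.44 units and had like levels at 2 h (0.53) and 7 h (0.56). Nr4a1, an orphan nuclear receptor gene, went from a level of -0.01 to 0.44 and was at 0.13 by 2 h. Gadd45b, a stress gene that NF-kappaB induces, went from a level of -0.41 to 0.11 and later reached 0.41 and 0.71. Its probes differed in the size of the change (0.89 and 0.14), as did those of Plk2 (0.01 and 0.73). Ier5 had 3 probes of one sign and a mean change of 0.32 units. The changes of Junb, Nr4a1, Gadd45b, Plk2 and Ier5 lay within 2 SD of a single probe's change. For Gadd45b, Plk2 and Ier5, with several probes, that cut is wide.

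The family did not move as one. Jun had 4 probes with changes between -0.12 and 0.01, Jund changed by -0.21 units on its 2 probes, and Mcl1 had 4 probes of mixed sign and a mean change of 0.07. Klf4, a zinc finger factor that is a known early gene, was lower, from a level of 0.19 to -0.36 units, and again low at 2 h (-0.38). Its change was -0.56 units, and it was -0.50 without centring and -0.53 with cyclic loess, both within 2 SD. Of 28 immediate-early genes measured of 44, 1 lay above 2 SD (Fos), 1 below (Klf4) and 26 within, and 16 were above 0. Of all genes 4.3% lay above 2 SD, 0.395% below and 53.1% above 0. The early genes were near these shares above 2 SD and above 0, and the 1 gene below rests on 1 probe. The list median was 0.08 units, beside 0.01 for all genes, and lay between 0.06 and 0.14 in the alternatives. Of the known first responders, Egr1, Dusp1, Dusp2, Zfp36, Tnfaip3 and Socs3 had no probe with 1 gene, Ier2 and Atf3 had no value at 0.5 h and Myc none at 0 h.

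The NF-kappaB feedback gene Nfkbia was higher at 0.5 h and stayed so. Its 1 probe had levels of -0.05, 0.59, 0.53, 0.71 and 0.41 units in order of time, and its change of 0.63 lay between 0.56 and 0.69 under the other ways of scaling. Irf1, a transcription factor gene that NF-kappaB and interferon both induce, went from a level of -0.26 to 0.38, and to 0.56, 0.44 and 0.48 on the later arrays, with a change of 0.64 that lay between 0.60 and 0.70. Unlike Fos, neither moved by much with the scaling. Pim1, a kinase gene, had the most probes of the early genes that agreed: its 4 probes changed by 0.25, 0.32, 0.39 and 0.52, with levels of -0.04, 0.33, 0.58 and 0.90 up to 7 h. The 4 Pim1 probes are neighbours, numbers 8115 to 8578. Cflar, an inhibitor of death receptor signalling, had a mean change of 0.40 from 1 probe far above 0 and 1 at -0.20, and the mean was -0.19 with quantile normalization and -0.48 with cyclic loess. Map3k8, the kinase Tpl2, changed by 0.29 units and was at a level of 1.25 by 2 h. Of 16 list members measured of 35, 2 lay above 2 SD (Irf1 and Nfkbia), 0 below and 14 within, beside 4.3% above and 0.395% below of all genes. The list median was 0.05 units and -0.03 with quantile normalization.

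**Figure D4:**
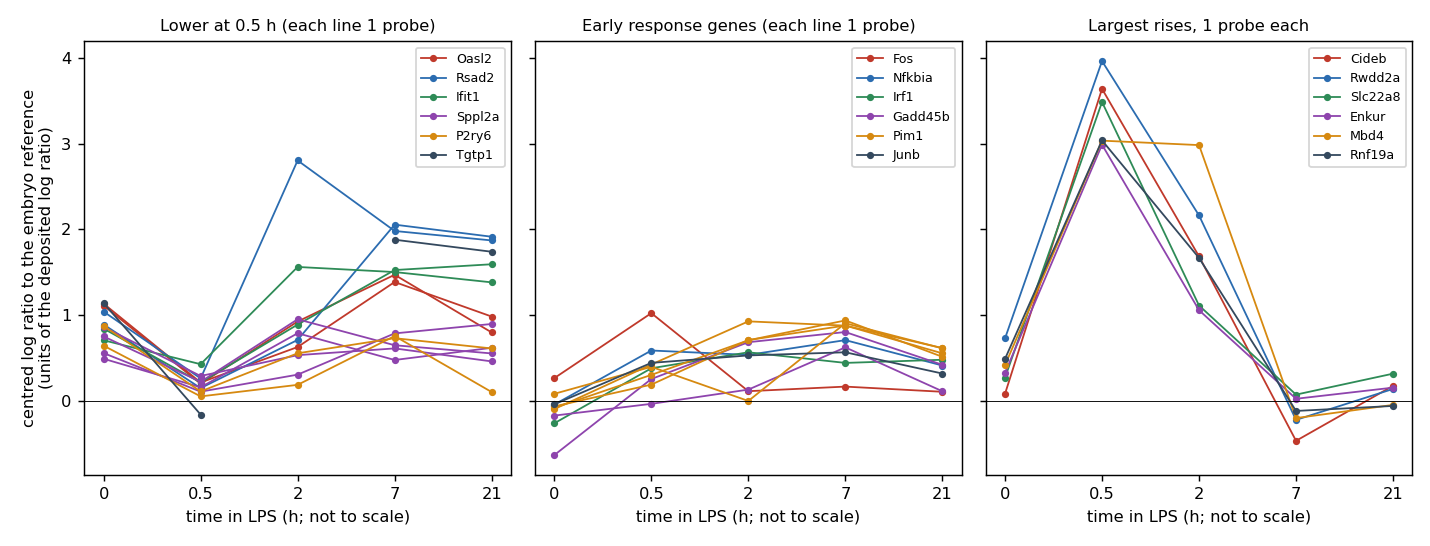
Level of single probes on the arrays at 0, 0.5, 2, 7 and 21 h (horizontal axis, not to scale). The vertical axis is the centred log ratio to the embryo reference, in units of the deposited log ratio. Each line is 1 probe. Within a panel each colour is 1 gene, and the same colours recur in each panel for other genes. On the left, probes of Oasl2, Rsad2, Ifit1, Sppl2a, P2ry6 and Tgtp1 dip at 0.5 h; in the middle, Fos peaks at 0.5 h while Nfkbia, Irf1 and Junb stay up; on the right, the 6 largest increases among genes with 1 probe stand near 3 units or above at 0.5 h and near 0 at 7 and 21 h.

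For receptors, adaptors and kinases of the pathway, no measured member passed 2 SD. Of 5 receptor genes measured, 15 adaptor and kinase genes and 21 MAP kinase genes, 0 lay past 2 SD in either direction, where 4.3% of all genes lay above and 0.395% below, a share at which lists of this size hold few such genes. Syk, a kinase of immunoreceptor signalling, had the largest change of these, from a level of 0.94 to 0.46 units on 1 probe. Its change of -0.48 was -0.60 with the arrays scaled to one deviation, -0.93 with cyclic loess and -1.03 with quantile normalization, each past 2 SD. Among feedback phosphatases, Ptpn6, which encodes SHP-1, went from a level of 0.26 to 0.88 units on 1 probe, a change of 0.61 that was 0.42 with quantile normalization and 0.33 with cyclic loess, both within 2 SD. Tlr4 and Cd14, the receptor and its partner, had no probe with 1 gene. Cytokine genes were measured in 7 of 31 cases, with changes from -0.03 to 0.17 units. Il1a, for example, had levels of 0.03 and 0.07 units before 1.24 at 2 h. Tnf, Il1b, Cxcl1, Cxcl2, Ccl3 and Ccl4, the cytokines known to be induced fastest, had no probe with 1 gene. Among 12 chemokine and receptor genes, 1 lay above 2 SD. This was Ccrl2, a receptor for chemerin, with levels of -0.28, 1.39, 1.05, 1.08 and 0.68 units on 1 probe. Its change of 1.67 lay between 1.34 and 1.74 under the other ways of scaling.

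In antigen presentation a few genes were lower. Ctss, the cathepsin that degrades the invariant chain, went from a level of 1.76 to 1.07 units and was at 1.74 at 2 h, on 1 probe. Its change of -0.69 was -1.58 with quantile normalization and -2.08 with cyclic loess. Of 9 MHC class II presentation genes it was the 1 below 2 SD, and the list median was -0.11 units (-0.13 to -0.05 in the alternatives). In the class I list (14 measured) H2-Q8 was the 1 below 2 SD, from a level of 1.04 to 0.15 units, and H2-Q10 changed by -0.51. With quantile normalization, and with cyclic loess, 4 of the 14 were below 2 SD and the list median of -0.01 became -0.21. Of all genes, 0.983% and 0.825% were below 2 SD under these settings. Genes of the H2-Q family are much alike in sequence, so a probe may detect RNA of several. Psmb8, an immunoproteasome subunit, had 7 probes, all below 0, with changes from -0.36 to -0.07 and a mean of -0.19 units. B2m, the class I light chain, had 3 probes above 0 and a mean change of 0.15.

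Cytosolic ribosomal protein genes were shifted slightly upwards as a list. Of 67 measured, 55 were above 0, against 53.1% of all genes. Past 2 SD lay 0, but this cut is wide for genes with several probes. By number of probes the error would be 0.158 units for Rps29 (change of 0.41) and 0.1365 for Rpl36a (0.36). The median change was 0.10 units, and between 0.07 and 0.15 in the alternatives. Most had several probes: 15 had probes of one sign, of which 12 were above 0, and 48 had probes of mixed sign. Besides Rps29, Rpl36a had 4 probes with changes from 0.24 to 0.49 and Rps15a 6 probes from 0.03 to 0.44, while Rpsa had 6 probes, all below 0, with a mean change of -0.15. Respiratory chain genes had 47 of 70 members above 0 and a median of 0.06 units (0.05 to 0.12 in the alternatives). Lists for heat shock (37 genes), glycolysis (24), actin and adhesion (49), lysosome (44) and cell cycle (60) had medians from -0.03 to 0.02 units. Of the cell cycle list, Incenp, of the chromosomal passenger complex, changed by 1.23 units on 1 probe, and by 0.69 with cyclic loess. Of the glycolysis list, the phosphofructokinase gene Pfkp had probe changes of 1.71 and 0.29, and a mean of 0.47 with cyclic loess. In the oxidative stress list (27 genes), Gsr, which encodes glutathione reductase, changed by 1.15 units on 1 probe, and by 0.48 with quantile normalization and 0.02 with cyclic loess. The probes of Incenp and Gsr had numbers from 1 to 6000.

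**Figure D5:**
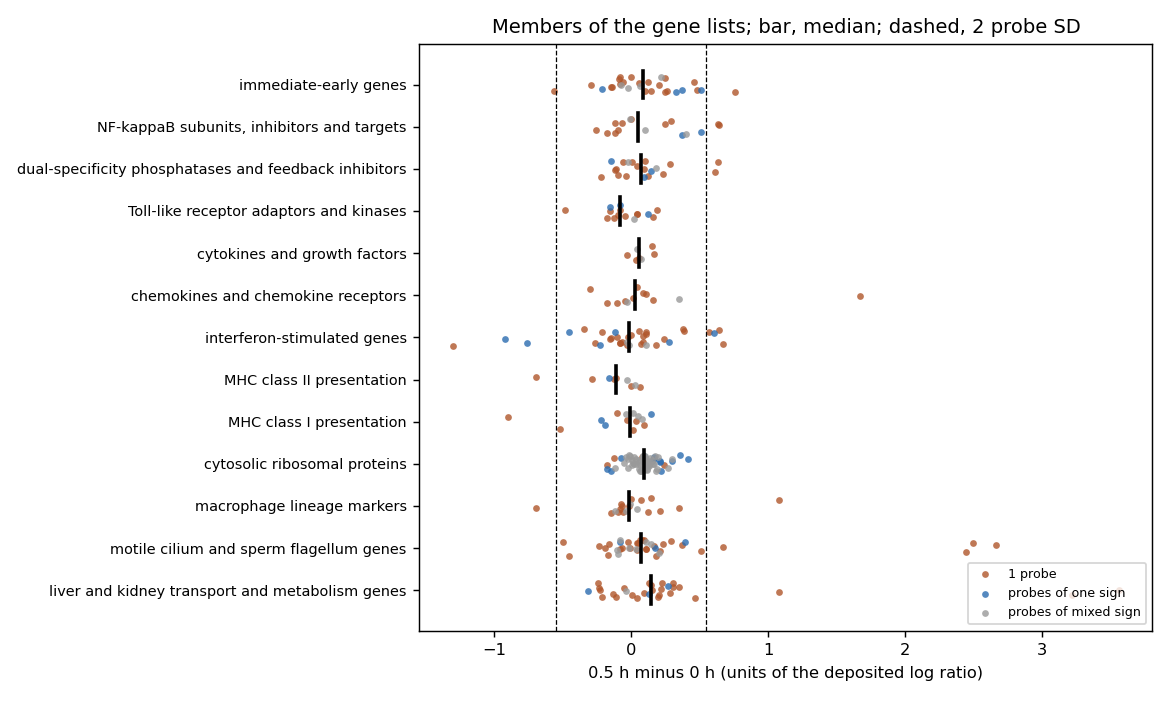
Change from 0 h to 0.5 h (horizontal axis, units of the deposited log ratio) of each measured gene of 13 lists, 1 point a gene, coloured by whether it has 1 probe, probes of one sign or probes of mixed sign; the black bar is the list median and dashed lines mark 2 probe SD (0.546 units). Points stay mostly between the dashed lines, and medians lie between -0.11 and 0.15.

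The 10 largest increases among genes with 1 probe ran from 2.42 to 3.56 units. Cideb, which encodes a lipid droplet protein of liver, changed by 3.56 units and Slc22a8, a kidney anion transporter, by 3.22. Enkur (2.66), Spag6l (2.50) and Capsl (2.44) are known from cilia and sperm. Mbd4 (2.62), a DNA repair glycosylase gene, Rnf19a (2.55), a ubiquitin ligase gene, Tinf2 (2.48), of telomeres, Fes (2.42), a myeloid tyrosine kinase gene, and Rwdd2a (3.24) completed the 10. Their 10 probes had numbers from 147 to 5829. Levels of Cideb were 0.08, 3.64, 1.68, -0.47 and 0.17 units in order of time, and those of Fes 0.45, 2.88, 1.72, 0.53 and 0.09. The 117 higher genes had median levels of 0.42, 1.90, 1.07, -0.04 and 0.04 units in order of time, and single genes such as Ccrl2 departed from this course. With cyclic loess the change of Cideb was 1.60 units, that of Slc22a8 1.24 and that of Enkur 0.97.

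Genes of tissues other than macrophages were looked at beside this tail. The cilium list and the liver and kidney list were chosen with these data known and hold genes of the tail itself. Enkur, Spag6l and Capsl are the 3 members of the cilium list past 1 unit. Those of the liver and kidney list are Cideb, Slc22a8 and Slc22a12 (change of 1.08 units). Counts of these 2 lists past a threshold therefore describe the genes and test nothing. Motile cilium and sperm flagellum genes (40 measured) had 4 members above 2 SD, 3 of them past 1 unit, 0 below, and a median change of 0.07 units, beside 4.3% of all genes above 2 SD and 1.47% past 1 unit. Their median level was 0.15 at 0 h and 0.19 at 0.5 h, with a highest level of 0.66 and 3.15. Liver and kidney genes (29 measured) had 3 above 2 SD, 0 below, and a median change of 0.15. With cyclic loess 1 of the cilium genes and 2 of the liver and kidney genes were above 2 SD, against 128 of all 8852 genes. Levels of the liver and kidney genes had a median of -0.04 on both arrays, with a highest of 0.56 and 3.64. Lymphocyte markers (12 measured) had 1 member above, Gzmb, with a change of 1.29 units (0.45 with cyclic loess) on a probe numbered 4318. Neutrophil (8), dendritic cell (6) and mast cell and platelet (10) markers had none past 2 SD. The part of RNA from other cells in the tail was not tested.

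Large decreases on 1 probe were few. Mthfd2l, a mitochondrial folate enzyme gene, went from a level of 2.63 to 0.15 units and stayed between -0.18 and 0.11 on the 3 later arrays, so that the 0 h array was the one apart. Icam2, an adhesion molecule gene, had the same course, with a level of 1.01 at 0 h and -0.32 to -0.11 on the 4 other arrays. Tgtp1, with no value at 2 h, was high again at 7 h, as given above. H2-Q8 was still low at 2 h, at a level of 0.16 units, and at 1.22 at 7 h. Golt1b (-0.88 units), Col22a1 (-0.86), 1700006A11Rik (-0.83), Cd164 (-0.81), Ceacam18 (-0.75) and Eif2s3x (-0.73) completed the 10 lowest. Col22a1 and Cd164, which encodes the sialomucin endolyn, had their lowest levels at 0.5 h (-1.14 and -0.87) and near their 0 h level at 7 and 21 h.

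Levels over the 5 arrays, which share no subtraction of the 0 h array, describe the course of the chosen genes. The 27 agreeing higher genes had median levels of 0.23, 0.82, 0.59, -0.03 and 0.06 units in order of time, and 15 of them were highest at 0.5 h and 11 at 2 h. Of the 127 genes at least 1 unit higher with 5 values, 120 were highest at 0.5 h and 7 at 2 h. Among all genes with 5 values, 1589 of 8693 (18.3%) were highest at 0.5 h. The 7 agreeing lower genes had median levels of 0.66, 0.08, 0.64, 0.63 and 0.57, and 6 of them were lowest at 0.5 h, against 1373 of all 8693 genes (15.8%). The choice of these genes by their difference at 0.5 h favours such peaks and dips, so the counts describe the genes and test nothing.

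Genes that were high in the late cultures could be picked from arrays the comparison did not use. With a mean level of at least 1 unit on the 7 and 21 h arrays, a threshold chosen after the data were seen, there were 44. They included macrophage and interferon-stimulated genes, 11 of them on the interferon list. Their median level was 0.80 at 0 h and 0.53 at 0.5 h. Their median change was -0.08 units. Of the 44, 8 (18.2%) were below 2 SD, against 0.395% of all genes, and 3 (6.82%) above, against 4.3%. The 8 were Tgtp1, Oasl2, H2-Q8, Rsad2, Ceacam18, Eif2s3x, Ctss and Epsti1, and the 3 were Siglecf, Ephx3 and Ifi204. All of these but Oasl2 and Rsad2 rest on 1 probe each. In contrast, Lyz2, the macrophage lysozyme gene, with 3 probes, had levels of 1.18 and 1.23 units, Fcgr1, which encodes a high-affinity IgG receptor, of 1.16 and 1.08, and Gbp2, a guanylate-binding protein gene that reached 2.82 units at 2 h, of 0.55 and 0.53. So not each macrophage gene with a high level was lower. With quantile normalization 21 of the 44 were below 2 SD, against 0.983% of all genes, and with cyclic loess 23, against 0.825%. Genes with a late level from 0.5 to 1 unit (311) had 0.965% below and 8.04% above.

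Genes with many probes give more values to compare. Of 524 genes with 4 or more probes, 59 (11.3%) had probes of one sign, 32 above and 27 below 0. Unrelated probes would share a sign in some genes too, and that share was not worked out. Among genes with exactly 2 probes, 50.8% had both on one side of 0, so a shared sign alone does not mark a changed gene. Sppl2a, Pim1 and Rpl36a led them, followed by Gdi2 (change of -0.32 units), a regulator of Rab GTPases, Hspa5 (-0.20), the chaperone BiP, and Cmtm5 (0.31). For Hspa5 the 4 probes lay between -0.26 and -0.16, with an SD of 0.046, so the probes were close to each other while the change was small. Hbb-y, an embryonic haemoglobin chain, had a mean change of -0.62 from 5 probes between -1.70 and -0.15, in which 1 probe stood apart. With the median of the probes it was -0.40.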

How the data were processed

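Total RNA was measured on 5 two-channel arrays of 19828 probes, 1 per time of LPS. Each array column that the authors deposited holds signed log ratios by probe, with some cells empty, a value of another kind than the usual units (other), since its base, direction, background correction and normalization were not given in the sources used here. Values were centred on each array's median, as deposited medians were 0.07 at 0 h and 0.13 at 0.5 h. Of the probes, 14759 had 1 gene in the platform's annotation, 170 had several and 4899 none. For 14628 of the 14759 probes the gene ID was found in RefSeq. Named probes with both values (14271) were averaged into 8852 genes. No test was run, since 1 array a side leaves no spread between cultures.

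The members, gene lists, thresholds and alternatives were chosen with earlier results of these data known. Named in the text are genes with agreeing probes (up to 12 each way), the 10 highest and lowest with 1 probe, up to 4 members of each of 31 lists, followed early genes, and genes of mixed sign; others named were chosen after their values were seen. Alternatives were no centring, quantile normalization, cyclic loess (span 0.3), arrays scaled to one deviation, probes on 5 arrays, a running median over 201 probes, probe medians, a low filter and other thresholds. The calculation was tested on simulated data. Python 3.11.15, numpy 2.4.6, pandas 2.3.3, statsmodels 0.14.6 and matplotlib 3.10.9 were used.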

Additional observations from a re-analysis of the deposited data

How the results depend on the processing

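No paired analysis was possible because each time had 1 array. The counts of genes at least 1 unit higher and lower (130 and 3) and of agreeing genes higher and lower (27 and 7) moved by at most 1.5 times when the arrays were scaled to one median absolute deviation, with probes measured on all 5 arrays, after removal of a running median along probe numbers, with probe medians and without the lowest 10% of genes. They became 48, 19, 16 and 15 with quantile normalization and 11, 22, 16 and 16 with cyclic loess. Without centring the agreeing counts were 68 and 4. Without probe numbers 1 to 6000, 8 genes were higher and 10 agreeing genes higher. A threshold of 1.5 units left 54 higher and 1 lower. A probe minimum of 0.5 units left 7 and 3 agreeing genes, and one of 0.2 units gave 97 and 23. Of 165 named genes, 8 changed sign under some alternative. Past 2 SD these were Ifi204 (-0.56 with quantile normalization, -1.01 with cyclic loess) and Clec4n, a lectin receptor gene with 1 probe (1.08, and -0.17 with cyclic loess). Within 2 SD they were Cflar, Irf7, Ccl6 (0.35, and -0.01 with cyclic loess), and Klf2, Fscn1 and Cnpy3 with changes of 0.06 or less in size. Of 45 named genes above 2 SD, 29 stayed there with quantile normalization and 20 with cyclic loess, and of 18 below, 18 and 17. The cause was not tested. Since no signal over background was used, dim spots stayed in.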
